A study of Mus musculus with 12 samples.

Results

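The 10 genes described here encode ATF4 and genes of the integrated stress response around it, namely Atf4, Atf5, Atf3, Ddit3, Nupr1, Trib3, Ppp1r15a, Asns, Chac1 and Sesn2. They were taken by name from the 43472 genes of the deposited table, and all 10 were found there. They had been chosen by measured values, their rise to the late blastocyst in controls and their difference with Tdgf1 siRNA at that stage, so these values are given below as a description. Where calls on them are counted, the choice of genes had already favoured them, and they support nothing. The study measured RNA by sequencing in mouse CD1 embryos, an outbred stock. Zygotes had received Tdgf1 siRNA or a negative control siRNA, and both arms had also received GFP mRNA, so no group was free of injected RNA. Embryos were collected as morulae, early blastocysts or late blastocysts, with 2 libraries for each of 6 groups and 12 libraries in all. The sources used here give neither the number of embryos per library nor whether the 2 libraries of a group came from separate injections, so p-values measure only the spread between libraries, which may be technical. Libraries held 10524640 to 13770264 reads, and levels are given in CPM, reads of a gene per 1000000 reads.

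The integrated stress response begins when kinases such as GCN2 and PERK, which sense amino acid shortage and unfolded protein in the endoplasmic reticulum, phosphorylate the translation factor eIF2. General protein synthesis then falls, while ATF4 mRNA, which carries upstream open reading frames, is translated more. ATF4, a basic leucine zipper transcription factor, raises genes for amino acid synthesis, amino acid uptake and tRNA charging, and with its target CHOP it can also raise genes of cell death. Libraries of RNA show the messages of these genes and not ATF4 protein or eIF2 phosphorylation. ATF4 is known to bind, with C/EBP partners, a C/EBP-ATF response element.

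Promoter stretches are shown because several of the 10 genes hold a short run of letters like that element. Promoter windows from RefSeq on build GRCm38.p6, 250 bases before to 50 bases after each start, were searched on both strands for TGATGNAA, the core of the C/EBP-ATF element, and for TGACGTNA, the core of a cyclic AMP response element, where N is any base. All 10 genes had a window, with 11 windows in all. TGATGNAA was found in 5 of the 10 genes and 5 of the 11 windows, against 1304 of all 32851 promoters of the same length (3.97%). TGACGTNA was found in 2 of the 10 genes and 2 of the 11 windows, against 2.93% of all promoters. The stretches around the matches are given 5′ to 3′ on the strand of the gene, with the matched element in capitals, read directly or as its reverse complement. They lie at chr6:7693210-7693268 for Asns, chr1:191183400-191183479 and chr1:191183334-191183379 for Atf3, chr2:119351013-119351092 for Chac1, chr7:126625537-126625616 for Nupr1, chr2:152344028-152344057 for Trib3 and chr7:45526269-45526316 for Ppp1r15a. Chac1 is on the plus strand and the others are on the minus strand.
Asns, TGATGNAA: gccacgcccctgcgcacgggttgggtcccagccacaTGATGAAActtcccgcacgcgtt
Atf3, TGATGNAA: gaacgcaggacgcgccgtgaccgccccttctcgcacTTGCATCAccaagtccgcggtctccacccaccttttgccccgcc
Chac1, TGATGNAA: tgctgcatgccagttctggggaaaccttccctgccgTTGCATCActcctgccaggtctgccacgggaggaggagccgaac
Nupr1, TGATGNAA: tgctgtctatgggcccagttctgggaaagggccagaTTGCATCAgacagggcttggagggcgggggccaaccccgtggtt
Trib3, TGATGNAA: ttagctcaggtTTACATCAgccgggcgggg
Atf3, TGACGTNA: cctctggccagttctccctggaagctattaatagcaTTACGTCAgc
Ppp1r15a, TGACGTNA: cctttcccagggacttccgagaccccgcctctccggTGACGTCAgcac
The matches to TGATGNAA began at -23 in Asns, -193 in Chac1, -110 in both Atf3 and Nupr1 and 15 in Trib3, counted from the RefSeq start. The windows of Atf4, Atf5, Ddit3 and Sesn2 held neither run of letters. A match is a run of letters and not a measured binding site.

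Before the stress genes are described, the libraries themselves need a word. Tdgf1, the targeted gene, which encodes the NODAL co-receptor Cripto, had 15.5 and 11.0 CPM in Tdgf1 siRNA morulae, against 29.4 and 23.4 CPM in control morulae. It had 9.27 and 15.2 CPM in Tdgf1 siRNA early blastocysts, against 21.7 and 13.1 CPM in controls, and 49.5 and 70.8 CPM in Tdgf1 siRNA late blastocysts, against 97.3 and 84.6 CPM in controls. The targeted message thus stood at 50.2%, 70.4% and 66.1% of the control mean at the 3 stages, and the early blastocyst arms overlapped. Trophectoderm markers summed to 5134 and 5750 CPM in Tdgf1 siRNA late blastocysts, against 6395 and 7369 CPM in controls, and most of that sum was Krt8 and Krt18. Cdx2 and Tfap2c were higher in both siRNA libraries, with log2 differences of 0.33 and 0.32, and Gata3 differed by 0.04. Krt8 and Krt18 were lower in both, with -0.32 and -0.44. Elf5 overlapped, at 6.55 and 17.6 CPM with Tdgf1 siRNA, against 22.3 and 14.9 CPM in controls (log2 difference -0.58). The median of these 6 markers was -0.14, with 3 negative and 3 positive. Epiblast markers summed to 332 and 298 CPM with Tdgf1 siRNA, against 258 and 253 CPM in controls. Primitive endoderm markers summed to 367 and 369 CPM with Tdgf1 siRNA, against 358 and 305 CPM in controls. Their median log2 difference had the other sign, -0.37 over the 4 past the filter on low values. Of these markers, Sox17 had 23.6 and 40.5 CPM with Tdgf1 siRNA, against 45.3 and 44.6 CPM in controls. Pdgfra was likewise lower without overlap, and Gata6 was higher without overlap. Gata4 overlapped, at 7.86 and 26.4 CPM with Tdgf1 siRNA, against 23.5 and 19.7 CPM in controls (log2 difference -0.44). Among markers of oocyte, cumulus and blood cells, Amhr2 reached 23.2 CPM and Cd68 24.6 CPM. In late blastocysts Amhr2 had 6.81 and 5.74 CPM with Tdgf1 siRNA, against 3.58 and 4.40 CPM in controls, and Cd68 had 16.4 and 11.9 CPM, against 6.33 and 9.72 CPM. Both were thus higher in both siRNA libraries. The other 16 reached at most 4.21 CPM in any library, and 12 of them were at 0 in at least 1 library. On the first principal component, early blastocysts scored 1.20 and -15.9 with Tdgf1 siRNA, against 6.01 and -20.2 in controls, so replicate 2 of both arms lay nearer to the morulae. In a bulk sample, fewer cells of a type and less RNA per cell cannot be told apart.

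Asns, which encodes asparagine synthetase, an enzyme that makes asparagine from aspartate and is a textbook ATF4 target, was lower in the siRNA arm at the late blastocyst. It lies on chromosome 6 from 7675169 to 7693254 (minus strand, GRCm38, GENCODE release M21). It had 64.2 and 83.5 CPM in Tdgf1 siRNA late blastocysts, against 149 and 166 CPM in controls. Both siRNA libraries were below both control libraries, at 46.8% of the control mean, and the same-numbered pairs stood at 43.0% and 50.3%. The log2 difference was -1.07 (SE 0.20), on the scale log2(value + 1) of the deposited unit, where 1 unit is 3.582 CPM. In morulae the order was the other way, with 37.4 and 27.9 CPM in Tdgf1 siRNA embryos, against 20.2 and 24.1 CPM in controls. Early blastocysts had 21.2 and 26.7 CPM with Tdgf1 siRNA, against 29.0 and 28.2 CPM in controls, again with no overlap and now lower in the siRNA arm.

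Trib3 encodes a pseudokinase that binds ATF4 and CHOP and dampens their activity, and it is itself raised by them. It lies on chromosome 2 from 152337422 to 152344032 (minus strand). Tdgf1 siRNA late blastocysts had 10.5 and 15.6 CPM, against 32.1 and 37.9 CPM in controls, which is 37.3% of the control mean and a log2 difference of -1.23 (SE 0.30). The groups did not overlap. Morulae had 4.49 and 4.94 CPM with Tdgf1 siRNA, against 7.37 and 9.69 CPM in controls, also without overlap. Early blastocysts overlapped, at 2.79 and 7.27 CPM with Tdgf1 siRNA, against 8.85 and 4.21 CPM in controls.

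Among the transcription factors, Atf4 itself (chromosome 15, 80255184 to 80257541, plus strand) was the most abundant message per length. It had 185 and 239 CPM in Tdgf1 siRNA late blastocysts, against 257 and 279 CPM in controls, or 79.0% of the control mean, and a log2 difference of -0.34 (SE 0.17). Both siRNA libraries were below both controls, by a smaller step than for Asns or Trib3. In early blastocysts it had 149 and 143 CPM with Tdgf1 siRNA, against 140 and 126 CPM in controls, with both siRNA libraries above both controls. In morulae it had 160 and 148 CPM with Tdgf1 siRNA, against 132 and 169 CPM in controls, and the groups overlapped.

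Ddit3 encodes CHOP, the ATF4 target that pairs with C/EBP proteins and promotes cell death under lasting stress. Its locus on chromosome 10, 127290774 to 127296288 on the plus strand, carries 2 gene models of that name and shares 68 exon bases with Mars on the opposite strand, so reads there could not be told apart where the counting took no strand. It had 72.5 and 69.3 CPM in Tdgf1 siRNA late blastocysts, against 90.9 and 101 CPM in controls, which is 73.7% of the control mean and a log2 difference of -0.42 (SE 0.25). The late groups did not overlap. Early blastocysts had 37.2 and 28.3 CPM with Tdgf1 siRNA, against 30.9 and 23.3 CPM in controls, and morulae had 19.2 and 21.8 CPM with Tdgf1 siRNA, against 15.9 and 30.8 CPM in controls. The groups overlapped at both earlier stages.

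Nupr1 encodes a small stress-induced nuclear protein (chromosome 7, 126623249 to 126630861, minus strand), and 1 library set its value. Tdgf1 siRNA late blastocysts had 1.66 and 31.3 CPM, against 34.9 and 25.2 CPM in controls. Replicate 1 of the Tdgf1 siRNA arm was at 4.75% of its same-numbered control, and replicate 2 was at 124% of its own. The log2 difference was -1.30 (SE 0.58) over all 4 late libraries, 0.07 without replicate 1 of the Tdgf1 siRNA arm and -2.67 without replicate 2. The last value sets 1 siRNA library, assumed to vary like the other groups, against 2 controls, and limma then called Nupr1 alone of all genes tested (0.00930%), a call that supports nothing here. At the earlier stages Nupr1 was near the limit of the test, at 0.536 to 2.65 CPM with Tdgf1 siRNA and 1.31 to 3.55 CPM in controls.

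Chac1, Atf3 and Atf5 were the scarce members and did not pass the filter on low values, a mean of 1 deposited unit over the 12 libraries. Chac1 encodes an enzyme that breaks down glutathione (chromosome 2, 119351229 to 119354381, plus strand). It had 2.36 and 1.85 CPM in Tdgf1 siRNA late blastocysts, against 3.48 and 10.3 CPM in controls, from 27 and 21 reads, against 38 and 134 reads. The groups did not overlap, at 30.5% of the control mean, and that mean rested mostly on replicate 2 of the controls. At the earlier stages Chac1 stayed between 0.366 and 1.07 CPM with Tdgf1 siRNA and between 0.290 and 1.49 CPM in controls.

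Atf3, a stress-induced factor of the same family that often represses its targets (chromosome 1, 191170296 to 191218039, minus strand), had 1.40 and 0.530 CPM in Tdgf1 siRNA late blastocysts, against 1.19 and 5.25 CPM in controls. The groups overlapped, and the controls differed between themselves, with 13 reads in replicate 1 and 68 reads in replicate 2. In morulae it had 3 and 0 reads with Tdgf1 siRNA and 0 reads in both controls, where 3 reads are 0.218 to 0.285 CPM over all libraries, the limit that a count of 0 allows. That limit covers counting error only.

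Atf5, a relative of ATF4 whose mRNA is also translated under eIF2 phosphorylation, showed another pattern (chromosome 7, 44812256 to 44816658, minus strand). In morulae it had 1.81 and 1.37 CPM with Tdgf1 siRNA, against 0.653 and 0.380 CPM in controls, from 21 and 15 reads, against 7 and 4 reads. In early blastocysts it had 2.63 and 1.91 CPM with Tdgf1 siRNA, against 0.744 and 0.726 CPM in controls, from 32 and 25 reads, against 9 and 10 reads. All 4 earlier siRNA libraries were above all 4 earlier controls, at 308% and 309% of the control means. In late blastocysts Atf5 had 4.45 and 4.32 CPM with Tdgf1 siRNA, against 4.40 and 4.17 CPM in controls, and the arms overlapped. With no filter on low values, limma's adjusted p for Atf5 was 1 at the morula and at the early blastocyst. On limma's scale the pseudocount, 3.582 CPM, lies above all these earlier levels, and the log2 differences were 0.34 and 0.44. By edgeR they were 1.59 at the morula and 1.60 at the early blastocyst, and by DESeq2 1.59 and 1.61. The limma p therefore does not show that the arms were alike. Atf5 shares 82 exon bases with Nup62 on the opposite strand, a gene that reached 111 CPM, and whether reads of Nup62 entered the Atf5 counts was not tested.

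Ppp1r15a and Sesn2 showed little difference between the arms at the late blastocyst. Ppp1r15a encodes GADD34, which brings protein phosphatase 1 to eIF2 and so closes the feedback loop (chromosome 7, 45522916 to 45526268, minus strand). It had 30.5 and 25.6 CPM in Tdgf1 siRNA late blastocysts, against 32.4 and 24.4 CPM in controls, a log2 difference of -0.01 (SE 0.21). Sesn2 encodes a sestrin, an inhibitor of mTORC1 signalling that p53 also induces (chromosome 4, 132492032 to 132510501, minus strand). It had 21.6 and 29.7 CPM in Tdgf1 siRNA late blastocysts, against 23.4 and 29.0 CPM in controls, a log2 difference of -0.03 (SE 0.26). The late arms overlapped for both genes. At the earlier stages Ppp1r15a stayed between 23.9 and 33.4 CPM with Tdgf1 siRNA and between 27.0 and 40.9 CPM in controls. In Ppp1r15a the morula arms did not overlap, at 32.0 and 33.4 CPM with Tdgf1 siRNA, against 40.9 and 39.4 CPM in controls. Sesn2 stayed between 14.8 and 28.6 CPM with Tdgf1 siRNA and between 20.0 and 31.0 CPM in controls, with overlap at both earlier stages.

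**Figure D1:**
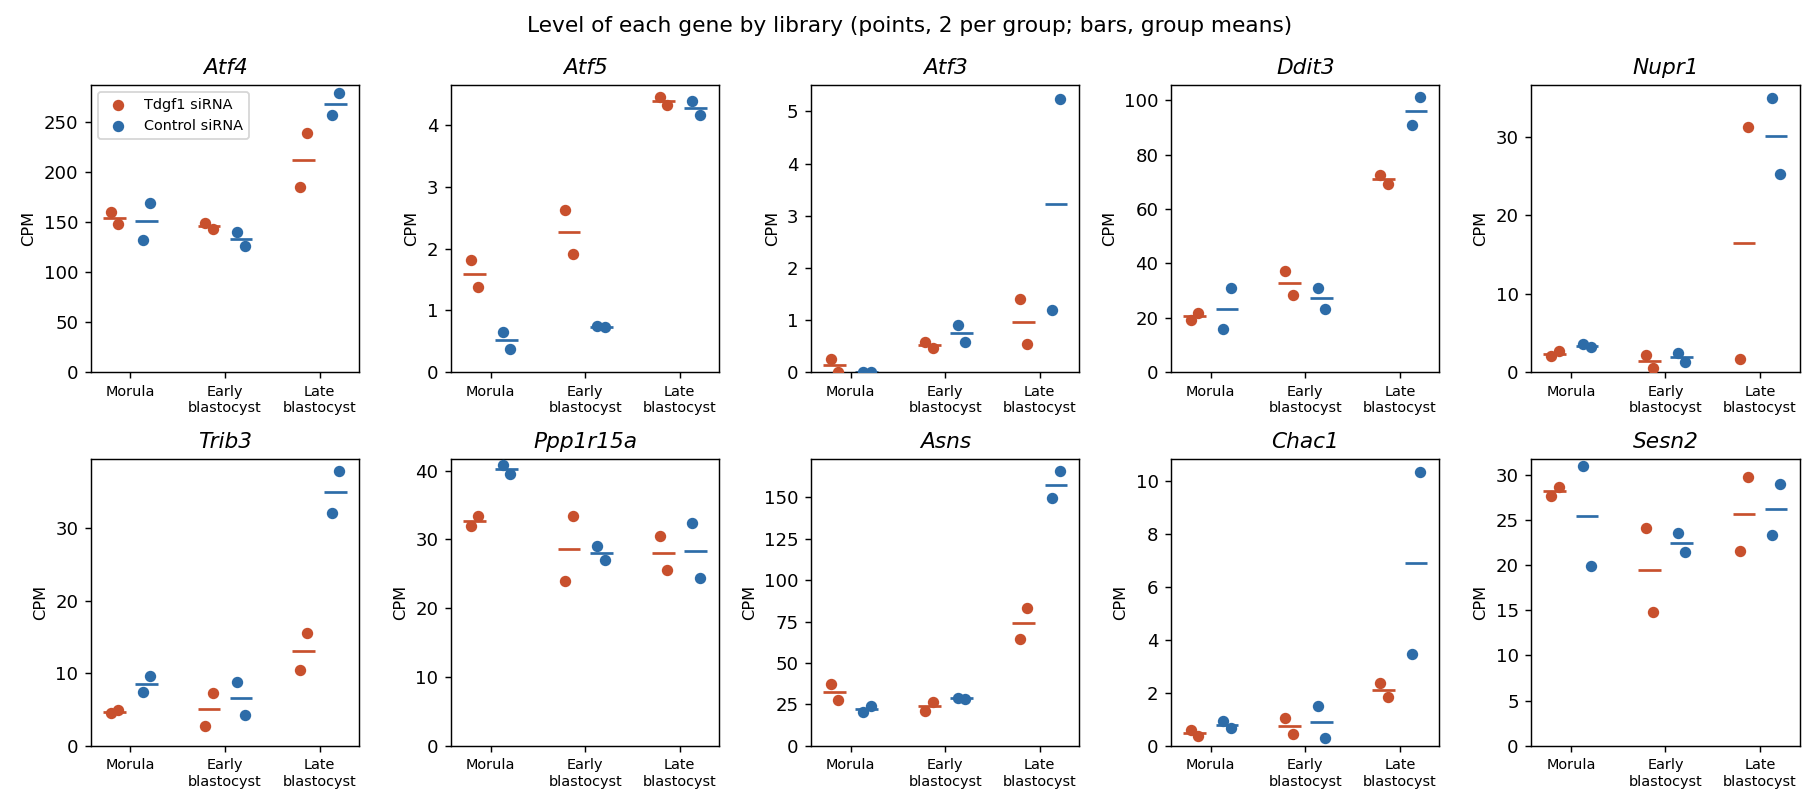
Level of each of the 10 genes (CPM, linear axis from 0) in every library at the 3 stages, with Tdgf1 siRNA left of control at each stage; each point is 1 library and each bar a group mean. For Asns and Trib3 both late siRNA points lie below both late control points, while for Nupr1 the siRNA points lie far apart, at 1.66 and 31.3 CPM.

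Read together at the late blastocyst, 9 of the 10 genes had a negative log2 difference, with a median of -0.47. The median of the 10751 genes past the filter was 0.02, and 46.3% of them were negative. In 5 of the 10 genes, namely Asns, Trib3, Ddit3, Atf4 and Chac1, both siRNA libraries were below both controls. The same held in 13.9% of all genes past the filter, a set without Chac1. The difference chose the genes, so nothing is read from these shares or from the calls that follow. With limma and Benjamini-Hochberg adjustment 0 of the 7 members past the filter had an adjusted p under 0.05 at the late blastocyst, as had 0% of all genes, and 3 members had an unadjusted p under 0.05, as had 2.06% of all genes. edgeR on the recovered reads also called 0 members, and DESeq2 called 1, Asns (0.00930% of all genes called). With same-numbered libraries of a stage as a block, limma also called 1, Asns (0.0279% of all genes called). Same-numbered late libraries hardly deviated together, with a correlation of 0.101 between their deviations from the group means.

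Leaving out 1 late library at a time left 7 to 9 of the 10 genes with a negative difference and gave medians of -0.73 to -0.30. The libraries also differed in other ways that moved with the arms. On the first principal component, which held 70.8% of the variance and ran from morula to late blastocyst, replicate 1 of the Tdgf1 siRNA arm scored 46.9 and replicate 2 scored 56.5, against 60.5 and 56.9 in controls. The part that this score or the marker genes of the cell types had in the result was not tested.

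The siRNA differences at the 2 earlier stages were not used to choose the genes. The control libraries in them did enter the choice, through the rise to the late blastocyst in controls. These contrasts are therefore not independent of the choice. At the early blastocyst the median log2 difference of the 10 genes was -0.05, with 6 negative and 4 positive. Nupr1 is left out of the counts of calls and of overlap at the earlier stages, since only its late level carried it past the filter. At the early blastocyst Nupr1 had means of 1.38 CPM with Tdgf1 siRNA and 1.89 CPM in controls. Of the other 6 members past the filter, 0 had an adjusted p under 0.05 in limma (0% of all genes), and 0 had an unadjusted p under 0.05, as had 1.04% of all genes. Asns differed by -0.23 (SE 0.20, 95% interval -0.67 to 0.21) and Trib3 by -0.24 (SE 0.30, interval -0.90 to 0.41). Of these 6 members, Atf4 was higher and Asns was lower without overlap of the arms. Among all genes past the filter 19.4% did not overlap. Atf5 (higher) and Atf3 (lower), both below the filter, also did not overlap and are not set against that share.

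At the morula the median log2 difference was -0.03, with 5 negative and 5 positive, and again 0 of the same 6 members passed in limma (0% of all genes). Asns was the 1 member with an unadjusted p under 0.05, as had 1.80% of all genes. Its log2 difference was 0.49 (SE 0.20, 95% interval 0.05 to 0.93), higher in both siRNA libraries, with an unadjusted p of 0.0330 and an adjusted p of 0.99995 in limma, so it failed the correction. Trib3 differed by -0.54 (SE 0.30, interval -1.19 to 0.11). Of these 6 members, Asns was higher and Trib3 and Ppp1r15a were lower without overlap of the arms. Among all genes past the filter 27.5% did not overlap. Atf5 (higher) and Chac1 (lower), both below the filter, and Nupr1 (lower) also did not overlap and are not set against that share. Whether the siRNA difference of a gene changed between stages was not tested.

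**Figure D2:**
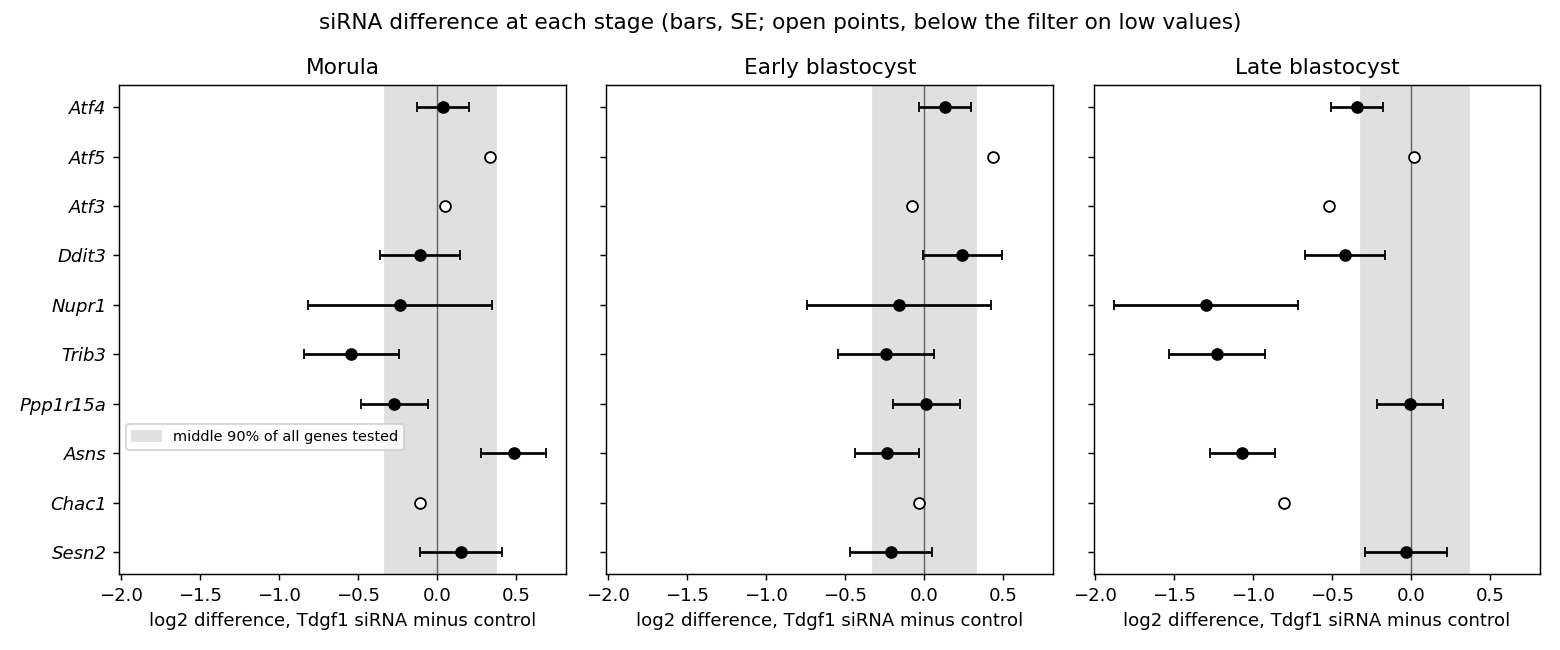
Difference of log2(value + 1), Tdgf1 siRNA minus control, for each gene at the morula, early and late blastocyst; bars are the SE from limma, and open points are the 3 genes below the filter, which have no test. Asns lies at 0.49, -0.23 and -1.07 across the stages, and the grey band holds the middle of the distribution of all genes tested.

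The stage course of the controls entered the choice of genes and is given as a description. All 10 genes had a positive log2 difference between late and early control blastocysts, with a median of 1.08, where the median of all genes tested was 0.08. The log2 difference was 2.61 for Nupr1, 2.32 for Asns, 1.97 for Trib3, 1.71 for Ddit3 and 0.99 for Atf4. These are the 5 of 7 members that limma called higher, where it called 16.5% of all genes higher, and nothing is read from that count, because this rise chose the genes and Nupr1 passed the filter only through its late level. Of all calls in this contrast 59.6% were higher in limma and 49.1% in edgeR, where TMM scaling was used. Sesn2 differed by 0.19 and Ppp1r15a by 0.01. As ratios of mean CPM, late over early, controls showed 15.9-fold for Nupr1, 7.77-fold for Chac1, 5.83-fold for Atf5, 5.51-fold for Asns, 5.36-fold for Trib3 and 4.32-fold for Atf3. The late means of Chac1 and Atf3 rested mostly on replicate 2. It had 10.3 CPM of Chac1 and 5.25 CPM of Atf3, against 3.48 and 1.19 CPM in replicate 1. The ratio was 3.55-fold for Ddit3 and 2.02-fold for Atf4. In 8 of the 10 genes both late controls were above all 4 earlier controls. The same held in 31.0% of all genes past the filter, a set without Chac1, Atf3 and Atf5.

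In Tdgf1 siRNA embryos the late libraries had likewise entered the choice. Their median log2 difference between late and early blastocysts was 0.48, beside 0.11 for all genes tested, and limma called 4 of 7 members higher, where it called 15.0% of all genes higher (63.6% of all calls were higher in limma and 50.5% in edgeR). These were Asns (1.49), Ddit3 (1.05), Trib3 (0.98) and Atf4 (0.52). The ratios of mean CPM were 3.09-fold for Asns, 2.59-fold for Trib3, 2.17-fold for Ddit3, 1.93-fold for Atf5 and 1.45-fold for Atf4. Nupr1 had 12-fold, resting on replicate 2. In 6 of the 10 genes both late siRNA libraries were above all 4 earlier ones. The same held in 30.0% of all genes past the filter, a set without Chac1 and Atf5. The late siRNA libraries had helped to choose the genes, so these calls support nothing either. The difference of the rises between the arms was not tested.

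From morula to early blastocyst, in Tdgf1 siRNA embryos whose earlier libraries were not used in the choice, 0 of the 6 members without Nupr1 passed in limma, where 15.4% of all genes did, and the median was -0.03. Ddit3 had the lowest p, with a log2 difference of 0.59 (SE 0.25), an unadjusted p of 0.0363 and an adjusted p of 0.135 in limma, and both early blastocyst libraries were above both morula libraries. Sesn2 differed by -0.49 (SE 0.26) and Asns by -0.39 (SE 0.20). In controls likewise 0 of these 6 passed, where 15.8% of all genes did, with a median of -0.06.

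Between genes, levels were compared as CPM per kb of merged exons. The length counts every annotated exon, for Ddit3 over 2 gene models, and the length of the transcripts present was not measured. Changes of order between the arms rest on the late values that chose the genes and are a description. In late blastocysts Atf4 stood highest, at 89.9 CPM per kb with Tdgf1 siRNA and 114 CPM per kb in controls. Asns was at 27.0 CPM per kb with Tdgf1 siRNA, against 57.7 CPM per kb in controls, and Ddit3 was at 41.4 CPM per kb, against 56.1 CPM per kb. In controls Asns and Ddit3 did not differ beyond their spread, while with Tdgf1 siRNA Ddit3 had the higher level. Trib3 was at 6.14 CPM per kb with Tdgf1 siRNA, against 16.5 CPM per kb in controls. Nupr1 was at 6.56 CPM per kb, against 11.96 CPM per kb, Ppp1r15a at 9.56 CPM per kb, against 9.66 CPM per kb, and Sesn2 at 7.38 CPM per kb, against 7.54 CPM per kb. Trib3 stood below these 3 genes with Tdgf1 siRNA, where it did not differ from Nupr1 and Sesn2 beyond the spread, and above them in controls. The scarcest were Chac1 (1.29 CPM per kb with Tdgf1 siRNA, 4.22 CPM per kb in controls), Atf5 (2.20 and 2.15 CPM per kb) and Atf3 (0.447 and 1.49 CPM per kb).

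Genes that work beside the 10 were described by lists of known members of each class, chosen with earlier results of these data known. In all siRNA contrasts 0 members of these lists passed limma's adjusted threshold, so the values below are levels and signs. Because of how the lists were chosen, nothing is read from their counts beside the shares of all genes, here or below. Aminoacyl-tRNA synthetases, which load amino acids onto tRNAs, and the tRNA exporter Xpot formed a list of 14 genes, all past the filter. In late blastocysts 13 of the 14 had a negative log2 difference, with a median of -0.34, beside 0.02 for all genes tested. In 11 of them both siRNA libraries were below both controls, where 13.9% of all genes tested were lower without overlap, and 6 had an unadjusted p under 0.05, as had 2.06% of all genes. Cars, the cysteine enzyme, had 50.3 and 59.6 CPM with Tdgf1 siRNA, against 95.1 and 86.9 CPM in controls. Lars, the leucine enzyme, had 61.1 and 69.8 CPM, against 106 and 94.1 CPM, and Gars, the glycine enzyme, had 170 and 178 CPM, against 278 and 222 CPM. Without 1 late library at a time, 11 to 14 of the 14 were negative, with medians of -0.45 to -0.19. In controls 5 of the 14 were called higher at the late than at the early blastocyst, where 16.5% of all genes were, and 0 were called lower.

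Serine, one-carbon and proline synthesis had 11 genes past the filter, and 10 of them were negative at the late blastocyst, with a median of -0.25. Pycr1, which makes proline, had 4.63 and 10.3 CPM with Tdgf1 siRNA, against 27.4 and 19.1 CPM in controls (log2 difference -1.31). Mthfd2, a mitochondrial folate enzyme, had 38.8 and 61.2 CPM, against 101 and 97.0 CPM, and Aldh18a1, which starts proline synthesis, had 13.7 and 28.9 CPM, against 40.1 and 36.0 CPM. None of these 3 genes overlapped between the arms, and in 5 of the 11 both siRNA libraries were below both controls, as in 13.9% of all genes. Without replicate 1 of the Tdgf1 siRNA arm 7 of the 11 were negative. Medians without 1 late library at a time were -0.50 to -0.26.

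Amino acid transporters had 8 genes past the filter, with 7 negative and a median of -0.18. Slc38a2, the carrier SNAT2 that amino acid shortage induces, had 47.7 and 85.9 CPM with Tdgf1 siRNA, against 95.6 and 104 CPM in controls. Slc3a2, the heavy chain shared by several exchangers, had 179 and 263 CPM, against 271 and 280 CPM. Slc38a7 had 22.2 and 29.8 CPM, against 39.1 and 30.8 CPM. These are the 3 of 8 transporters past the filter without overlap, all lower, as were 13.9% of all genes. Without replicate 1 of the Tdgf1 siRNA arm, and likewise without replicate 1 of the controls, 4 of the 8 were negative. Medians without 1 late library at a time were -0.33 to -0.02.

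Other ATF4 and CHOP targets did not share a sign, with 8 negative and 8 positive among 16 and a median of -0.00. Without overlap, 4 were lower, as were 13.9% of all genes, and 2 were higher, as were 18.0%. These 2 were Tnfrsf10b and Bbc3, and Bbc3 also stands in the list of p53 targets below. Herpud1, which serves the degradation of endoplasmic reticulum proteins, had 19.4 and 31.0 CPM with Tdgf1 siRNA, against 61.6 and 61.8 CPM in controls (log2 difference -1.21, SE 0.25). Cited2, a transcription cofactor, had 20.4 and 24.8 CPM, against 37.7 and 35.5 CPM. Tnfrsf10b, the death receptor that CHOP raises, was higher, at 18.5 and 13.3 CPM with Tdgf1 siRNA, against 10.4 and 9.49 CPM in controls. A list of 8 genes past the filter held the eIF2 kinase genes Eif2ak1, Eif2ak3 and Eif2ak4, with Eif2s1, Ppp1r15b, Gcn1l1, Impact and Nck1. Its median was -0.07, and so was that of the eIF2B subunits over 5 genes. ATF4 partners and related factors had a median of -0.20 over 7 genes, the value of Creb3. Among them Jdp2, which can pair with ATF proteins, was at 8.64 and 13.4 CPM with Tdgf1 siRNA, against 27.5 and 15.0 CPM in controls.

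Genes of the other arms of the unfolded protein response, driven by ATF6 and XBP1, included Atf6, Ern1 and Xbp1 themselves. They had a late median of 0.07, with 5 negative and 13 positive of 18, where 46.3% of all genes tested were negative. At the early blastocyst 13 of the 18 were negative (median -0.16), and at the morula 14 were negative (median -0.18). Of all genes tested, 49.7% were negative at the early blastocyst and 47.4% at the morula. Targets of p53 had the other sign at the late blastocyst, with 0 of 16 negative and a median of 0.46. Without 1 late library at a time, 0 to 2 of the 16 were negative, with medians of 0.30 to 0.54. At the early blastocyst 14 of the p53 targets were negative (median -0.15), and at the morula 14 were positive (median 0.34). In 13 of these 16 both late siRNA libraries were above both controls, as in 18.0% of all genes, and the list summed to 1658 and 1325 CPM with Tdgf1 siRNA, against 1046 and 1144 CPM in controls. Genes of the interferon response to double-stranded RNA were low in every library, summing to 9.85 to 28.3 CPM over 13 genes.

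**Figure D3:**
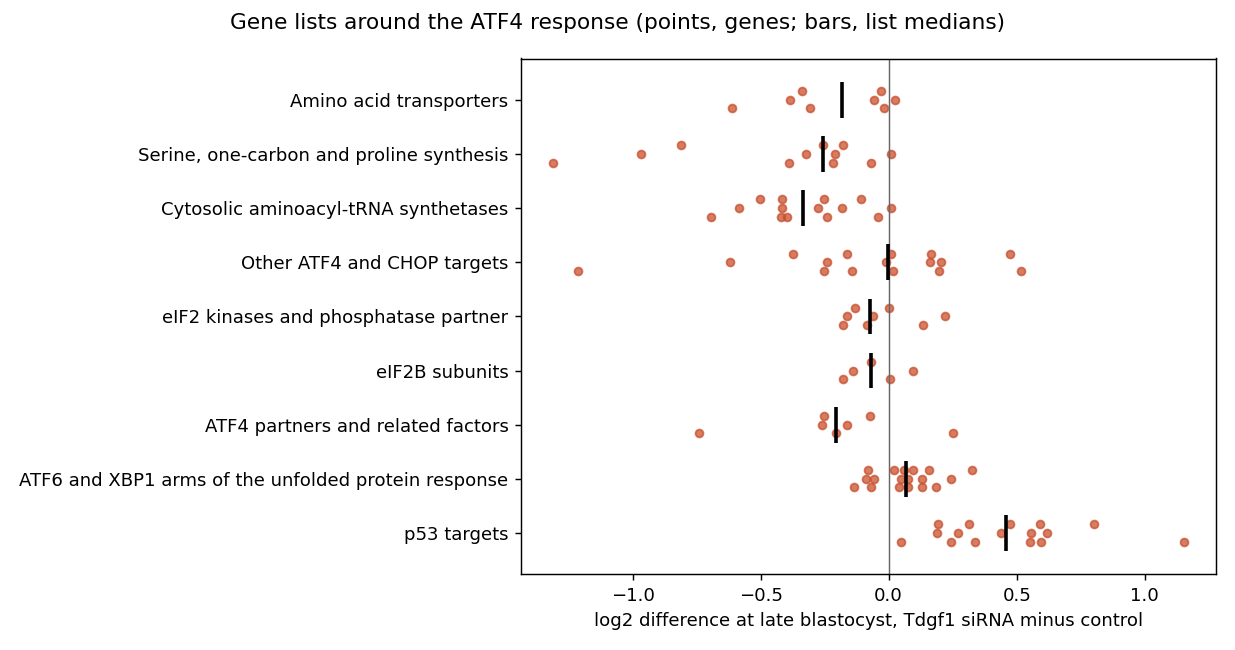
Difference of log2(value + 1) at the late blastocyst, Tdgf1 siRNA minus control, for every gene past the filter in 9 lists; each point is a gene and each black bar the median of its list. The tRNA synthetase list has its median at -0.34, the ATF6 and XBP1 list at 0.07 and the p53 targets at 0.46.

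Within a stage, the 10 genes did not all vary together over libraries. After each stage's mean was taken off, a gene's correlation with the mean of the other 9, as a description over 12 libraries, was 0.80 for Atf4, 0.77 for Chac1, 0.72 for Asns, 0.71 for Trib3, 0.57 for Atf3, 0.54 for Nupr1 and 0.50 for Ddit3. It was 0.01 for Sesn2, -0.14 for Atf5 and -0.39 for Ppp1r15a. The mean standardized deviation of the 10 genes was -1.09 and -0.45 in the Tdgf1 siRNA late blastocysts, against 0.44 and 1.10 in controls. At the morula and early blastocyst it lay between -0.05 and 0.17 with Tdgf1 siRNA and between -0.43 and 0.26 in controls. The largest deviations were thus in the late libraries, and correlations without those libraries were not computed. The late difference between the arms chose the genes, so these correlations in part restate the choice.

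The 10 other genes whose course over the 12 libraries was most like that mean had r of 0.86 to 0.92. They were Nars, the asparagine tRNA synthetase (0.92), Atp6v0d1, a subunit of the vacuolar proton pump (0.92), Mdh1, cytosolic malate dehydrogenase (0.92), Slc25a43 (0.91), Scfd1 (0.90), Fam210b (0.90), Gm21958 (0.89), Gbas (0.89), Tfpi, an inhibitor of coagulation (0.88), and Stxbp3a (0.86). Nars had 262 and 297 CPM in Tdgf1 siRNA late blastocysts, against 365 and 383 CPM in controls, and Fam210b had 16.8 and 23.3 CPM, against 32.1 and 43.0 CPM. These genes were ranked on the same libraries that gave the values, and genes of 1 library share its depth. The mean they were ranked on holds the late difference that chose the members, so nothing is read from the ranking.

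**Figure D4:**
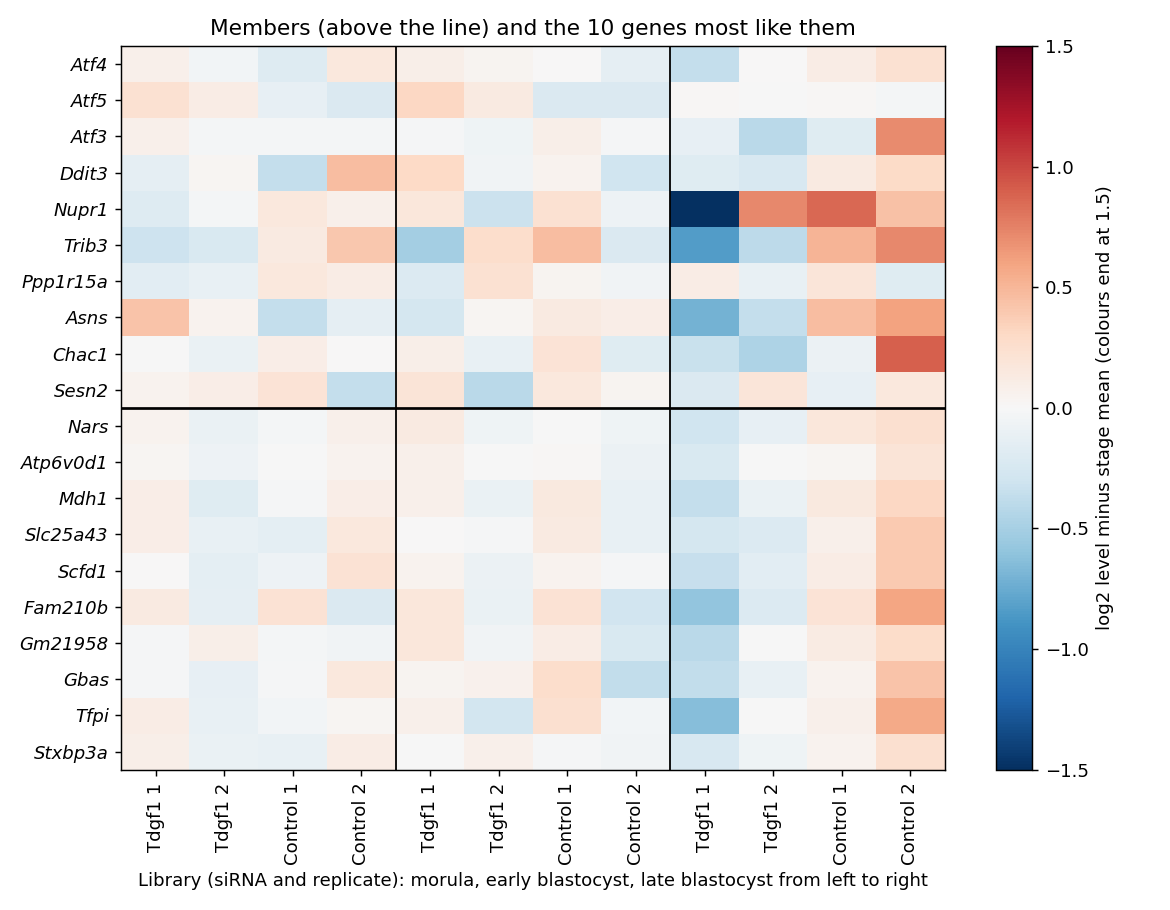
Deviation of log2(value + 1) from the mean of the 4 libraries of its stage, for the 10 stress genes and the 10 most similar other genes (rows) in the 12 libraries (columns), with Tdgf1 siRNA left of control at each stage. Colour gives the sign and size, and the scale ends short of Nupr1 in late siRNA replicate 1 (-2.02). The late siRNA columns are mostly negative and the late control columns mostly positive, with Ppp1r15a, Atf5 and Sesn2 closer to 0 there.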

How the data were processed

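The deposited table held 43472 genes and 12 columns, 1 per library, headed RPKM per the file headers. However, each value is a whole multiple of 1 step per library, the same for all genes (100.0% whole within 0.01 reads), and each column sums to 279173.646, so the values the authors deposited are CPM divided by 3.582. Per the submitters' processing notes, HISAT2 2.1.0, Cufflinks, HTSeq, edgeR and build mm10 were used, in roles not given in the sources used here. Strand of counting is not given.

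Levels were multiplied back to CPM. log2(deposited value + 1), a pseudocount of 3.582 CPM, was tested with limma 3.58.1 (R 4.3.3) with a trended prior over 6 group means and Benjamini-Hochberg adjustment, on 10751 genes whose mean reached 1 deposited unit. edgeR 4.0.16 and DESeq2 1.42.0 were run on the recovered reads. The code was tested on simulated data with known changes. Replicates of a group differed by a chi-square of 17.0 to 41.1 per gene, so none were merged. Same-numbered libraries deviated together in morulae (correlation 0.458) and early blastocysts (0.593), and hardly in late blastocysts (0.101). A fit with them as a block was also used, though replicate numbers alone do not show a pairing.

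The members and gene lists were chosen with earlier results of these data known. Named from the lists are genes past the threshold in a siRNA contrast, otherwise the 3 with the largest late difference. From some lists fewer are given. Some genes are also named outside this rule, among them Krt8, Gata3, Tfap2c, Pdgfra and Creb3. No library was left out. Alternatives were 2 other pseudocounts, 2 other filters, quantile normalization, the block, the compared groups alone and each replicate left out.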

Additional observations from a re-analysis of the deposited data

Results flagged for a closer look

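In 2 genes the arms did not overlap at more than 1 stage and did so in opposite directions. Atf4 had a log2 difference (Tdgf1 siRNA minus control) of 0.13 at the early blastocyst, with both siRNA libraries above both controls, and of -0.34 at the late blastocyst, with both below. Asns had 0.49 at the morula, with both siRNA libraries above both controls, then -0.23 at the early and -1.07 at the late blastocyst, with both below at each. The change of sign between stages was not tested, since the late values chose the genes.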

How the results depend on the processing

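Medians below are of the log2 differences of the 10 genes. At the late blastocyst the siRNA median, -0.47, was -0.77 with a pseudocount of 0.1 deposited units, -0.31 with 5, -0.67 by edgeR and -0.68 by DESeq2, and -0.73 to -0.30 with 1 replicate left out. With same-numbered libraries as a block 1 member was called there, and DESeq2 also called 1, on values that chose the genes. The block changed no other member's call in the siRNA contrasts. The early siRNA median was -0.21 by edgeR, -0.22 by DESeq2 and -0.179 to 0.0789 with 1 replicate left out. The morula median was -0.00703 with pseudocount 5, -0.0955 by edgeR, -0.11 by DESeq2 and -0.0995 to 0.0145 with 1 left out. In controls, early minus morula was -0.19 after quantile normalization, and late minus early was 1.96 with pseudocount 0.1, 0.66 with 5, 2.20 by edgeR, 2.22 by DESeq2 and 0.91 to 1.35 with 1 left out. With a filter at a mean of 5 units 3 members were called, because fewer were tested. In Tdgf1 siRNA embryos, early minus morula was -0.0970 after quantile normalization. Late minus early was 0.99 with pseudocount 0.1, 0.33 with 5, 0.94 by edgeR, 0.93 by DESeq2 and 0.39 to 0.63 with 1 left out, and its 4 calls were 1 without a filter, 2 with the compared groups alone and 1 to 3 with 1 left out. The cause of these moves was otherwise not tested.

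Some signs turned. Nupr1 at the late blastocyst, -1.30, was 0.07 without Tdgf1 siRNA replicate 1 and -2.67 without replicate 2. The late siRNA difference was -0.19 to 0.17 for Ppp1r15a and -0.24 to 0.17 for Sesn2 with 1 replicate left out. Ppp1r15a at the early blastocyst was -0.000344 after quantile normalization and -0.20 to 0.23 with 1 replicate left out. Trib3 between morula and early blastocyst in Tdgf1 siRNA embryos was -0.0483 with pseudocount 0.1, -0.0495 after quantile normalization and -0.38 to 0.39 with 1 left out, and Ppp1r15a there was -0.402 to 0.0294. With 1 left out, early siRNA differences were -0.63 to 0.14 for Trib3, -0.403 to 0.0907 for Nupr1 and -0.505 to 0.0887 for Sesn2, and morula differences were -0.14 to 0.21 for Atf4, -0.52 to 0.30 for Ddit3 and -0.12 to 0.43 for Sesn2. For medians and counts of calls, 38 alternative values moved by more than the set margin and 149 did not. For single genes and lists, 98 moved, 16 were marked as changing sign and 700 were neither by the margin used, which for Nupr1 is as wide as the spread of its replicates. Sign changes were marked for called genes in any contrast. Otherwise only members past the filter were marked, in the earlier siRNA contrasts and in early minus morula in Tdgf1 siRNA embryos. Other changes of sign were not counted as such. The list counts without 1 library were added after seeing the data. Depth limits Chac1, Atf3 and Atf5, at 0 to 134 reads per library.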
